A study of Drosophila melanogaster with 6 samples.

Results

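Of the 17753 genes in the deposited expression tables, 8 were chosen by name as genes that induce the R7 photoreceptor and the lens-secreting cone cells of the Drosophila eye: sev, boss, phyl, sina, ebi, ttk, pros and lz. The choice was made with earlier results of these data known. All 8 were found in the tables, and all 8 passed the filter on low counts that left 9901 genes for testing. They were compared between eye discs and antennal discs, the larval epithelial sacs that form the adult eye and the antenna, from third-instar larvae of genotype yw;+;+. There were 3 libraries of polyadenylated RNA per tissue, each from 30 discs separated by hand. Both tissues carry the same yellow and white alleles, so that neither group differs from the other by genotype.

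R7 is the last photoreceptor to join each unit of the compound eye. The neighbouring R8 cell displays the membrane protein Boss, which binds the receptor tyrosine kinase Sevenless on the R7 precursor and switches on Ras and MAP kinase. The cascade turns on phyl, whose product brings the transcriptional repressor Tramtrack to the ubiquitin ligase Sina, and Ebi takes part in its removal. The RUNX factor Lozenge marks the precursors that can take R7 or cone cell fate, and pros, a homeobox gene, is expressed in both.

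The estimated counts summed to between 17583649 and 25711627 per eye disc library and to between 25720706 and 29093995 per antennal disc library. Values below are CPM, counts per-million after TMM scaling, and 3 counts correspond to 0.103 to 0.171 CPM before that scaling, a floor that covers counting error only. Eye disc replicate 2 stood apart by its fat body transcripts: Lsp1alpha and Lsp2 together were at 9573 CPM there, against 1137 to 2910 CPM in the other 5 libraries. Markers matched the tissue labels. The eye genes eya, so, ey and gl summed to 1003 to 1116 CPM in eye disc, against 74.9 to 105 CPM in antennal disc, and the antennal genes Dll, ss, hth and disco to 382 to 407 CPM in eye disc, against 1286 to 1380 CPM in antennal disc, with no marker of either list at 0 in any library. Of 4 muscle markers 1, Mhc, was called, lower in eye disc, as were 11.7% of all genes tested. The sum of the 4 was 105 to 378 CPM in eye disc, against 422 to 555 CPM in antennal disc.

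The genes of the signal and of the responding cells, sev, boss, phyl, lz and pros, were higher in eye disc, by between 3.67-fold and 19.7-fold. The widely used parts of the Tramtrack pathway differed little: ebi and ttk were 1.16-fold and 1.24-fold higher in antennal disc, and sina was not called. By the quasi-likelihood test of edgeR, at a Benjamini-Hochberg adjusted p under 0.05, 7 of 8 members were called, against 26.4% of all genes tested. Of these 5 were higher in eye disc, against 14.6%, and 2 in antennal disc, against 11.7%. The median log2 fold change, eye disc over antennal disc, was 2.27 over the members and 0.00 over all genes tested. In 7 of the 8 members the ranges of eye and antennal disc were apart, as they were for 45.6% of all genes tested. The calls of sev, boss, phyl and lz held whichever library was left out, while those of ebi, ttk and pros did not. Only sev, boss, phyl and lz were called without antennal disc replicate 1, 2 or 3, and without eye disc replicate 2 the members called numbered 5 higher and 0 lower in eye disc. With the replicate number as a block 6 members were called, 4 higher and 2 lower in eye disc, and pros was not (adjusted p = 0.064). In whole discs, fewer cells of a type and less RNA per cell cannot be told apart.

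**Figure D1:**
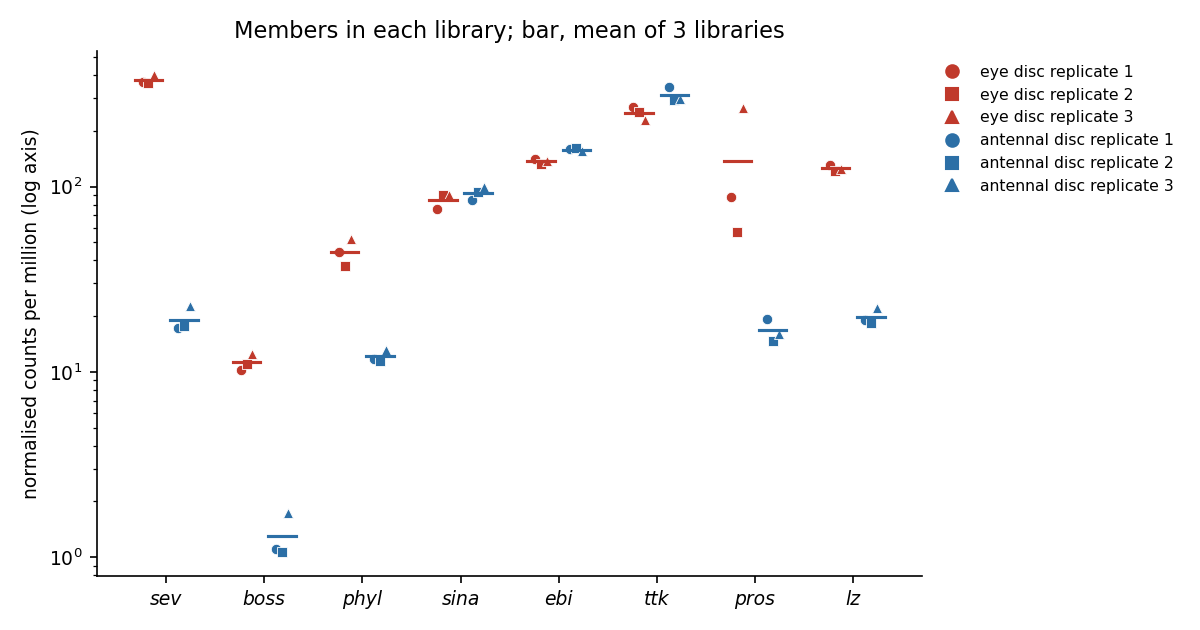
Normalised CPM (log axis) of the 8 members in each eye disc (red) and antennal disc (blue) library, with the mean of 3 libraries as a bar. The tissues are apart for sev, boss, phyl, pros and lz, close for ebi and ttk and overlapping for sina, and pros is spread from 56.9 to 267 CPM among the eye disc libraries.

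The receptor gene sev (FBgn0003366, X, 11071441 to 11086299, minus strand, 12 exons) showed the largest difference of the 8. It was at 366, 361 and 402 CPM in eye disc replicates 1, 2 and 3, and at 17.2, 17.6 and 22.6 CPM in antennal disc replicates 1, 2 and 3. Every eye disc library was far above every antennal disc library. The means were 376 ± 22.1 CPM in eye disc, against 19.1 ± 3.02 CPM in antennal disc (SD, n = 3 each), a log2 fold change of 4.30 ± 0.13 (SE, edgeR adjusted p = 1.31e-05). By log2 fold change sev stood at place 111 of the 9901 genes, counted from the eye disc end. An antisense RNA gene, asRNA:CR44358, covers 3.24% of the sev span on the opposite strand and was listed at 0 in all 6 libraries.

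The ligand gene boss (FBgn0000206, 3R, 25961994 to 25966948, plus strand, 6 exons) was the member with the fewest reads. It was at 10.2, 11.1 and 12.5 CPM in eye disc replicates 1, 2 and 3 and at 1.11, 1.07 and 1.73 CPM in antennal disc replicates 1, 2 and 3, which are 31, 32 and 45 counts. The lowest eye disc library was several times above the highest antennal disc library. The log2 fold change was 3.11 ± 0.26 (edgeR adjusted p = 0.000488), with means of 11.3 ± 1.14 CPM in eye disc, against 1.30 ± 0.367 CPM in antennal disc. boss overlaps no other gene.

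The adaptor gene phyl (FBgn0013725, 2R, 14427336 to 14432337, minus strand, 2 exons) had the smallest difference among the 5 genes higher in eye disc. It was at 44.1, 37.2 and 52.0 CPM in eye disc replicates 1, 2 and 3, against 11.8, 11.4 and 13.2 CPM in antennal disc replicates 1, 2 and 3. The antennal disc mean was 27.2% of the eye disc mean, where that of sev was 5.09% of it. This gave a log2 fold change of 1.88 ± 0.14 (edgeR adjusted p = 0.000268). phyl also acts in the precursors of sensory organs, which both discs form. Of 7 genes of such precursors, sens (log2 fold change 0.28), neur (1.56) and ato (0.37) were called higher in eye disc, against 14.6% of all genes tested. ac (0.18), sc (0.05) and ase (0.55) were not called, and amos, at 0 in 5 of 6 libraries, was not tested. The call of sens was lost whichever library was left out and with the replicate block (adjusted p = 0.0706), and that of ato without each antennal disc replicate. Both calls were also lost under limma-trend on log2(TPM + 1) (adjusted p = 0.916 for sens and 0.772 for ato). The spans of ac, sc and ase are wholly covered by other genes. Together the 7 genes were at 183 to 226 CPM in eye disc, against 144 to 156 CPM in antennal disc, and their part in the phyl values was not tested.

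The ubiquitin ligase gene sina (FBgn0003410, 3L, 16853751 to 16858712, plus strand, 3 exons) was at similar levels in both tissues. It was at 75.8, 89.6 and 90.0 CPM in eye disc replicates 1, 2 and 3 and at 84.5, 93.0 and 99.5 CPM in antennal disc replicates 1, 2 and 3, so that the ranges overlapped. sina differed by -0.12 on the log2 scale, with a 95% interval from -0.34 to 0.11 (edgeR adjusted p = 0.397). sina lies wholly inside the single intron of Rh4 (intron 16853240 to 16861881), on the opposite strand. Rh4 encodes a rhodopsin that adult R7 cells carry, and in these discs it was at 1.61 to 4.88 CPM in eye disc, against 1.69 to 3.19 CPM in antennal disc. Summed with Rh4, sina differed by -0.10. Its paralogue sinah, which lies within Rh4 too, was listed at 0 in all 6 libraries.

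ebi (FBgn0263933, 2L, 415067 to 418536, plus strand, 3 exons), which encodes a WD-repeat protein that acts with Sina and Phyl and with corepressors, was slightly lower in eye disc. It was at 141, 132 and 137 CPM in eye disc replicates 1, 2 and 3 and at 159, 161 and 155 CPM in antennal disc replicates 1, 2 and 3. The ranges did not overlap, and the spread within a tissue was small. The log2 fold change was -0.22 ± 0.05 (edgeR adjusted p = 0.0209), and with 1 library dropped the call ended in 4 of 6 fits, at log2 fold changes from -0.25 to -0.19 over the 6 fits and adjusted p up to 0.0764. These were the fits without eye disc replicate 2 and without each antennal disc replicate.

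The repressor gene ttk (FBgn0003870, 3R, 31713867 to 31735392, plus strand, 8 annotated transcripts) blocks neural fate until its product is removed. It was at 269, 253 and 230 CPM in eye disc replicates 1, 2 and 3 and at 343, 293 and 297 CPM in antennal disc replicates 1, 2 and 3. All antennal disc libraries were above all eye disc libraries, by a margin smaller than the range within antennal disc. The log2 fold change was -0.31 ± 0.09 (edgeR adjusted p = 0.0446), and of the 6 fits with 1 library dropped, the call stood in the 1 without eye disc replicate 1 (-0.37). In the other 5 the log2 fold change was between -0.36 and -0.25, with adjusted p up to 0.0909. The tables hold 1 value per gene, so the protein isoforms of Tramtrack were not separated, and the removal of the protein is not seen in RNA.

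The RUNX gene lz (FBgn0002576, X, 9284649 to 9303636, plus strand, 6 exons) was at 131, 121 and 125 CPM in eye disc replicates 1, 2 and 3 and at 19.0, 18.4 and 22.0 CPM in antennal disc replicates 1, 2 and 3. Every eye disc library was above every antennal disc library. lz differed by 2.67 ± 0.09 on the log2 scale (edgeR adjusted p = 1.65e-05). Lozenge also specifies crystal cells, blood cells that make prophenoloxidase, and certain sense organs of the antenna. The crystal cell genes PPO1 and PPO2 summed to 617 to 736 CPM in eye disc, against 233 to 247 CPM in antennal disc. Both were called higher in eye disc, against 14.6% of all genes tested, at log2 fold changes of 1.45 and 1.49. Their part in the lz values was not tested. The span of PPO1 is wholly covered by another gene. Markers of blood cells in general moved the same way: Hml, NimC1, srp and Pxn summed to 415 to 563 CPM in eye disc, against 220 to 300 CPM in antennal disc. Of these 3 were called higher in eye disc, against 14.6% of all genes tested. They were srp (0.99), NimC1 (0.92) and Pxn (0.87), and Hml was not called (0.73, edgeR adjusted p = 0.168). All 3 calls were lost under limma-trend on log2(TPM + 1), and that of NimC1 without antennal disc replicate 2 (adjusted p = 0.0586). Their part in the lz values was not tested either.

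The homeobox gene pros (FBgn0004595, 3R, 11328480 to 11407627, plus strand) was the member that varied most between eye disc replicates. It was at 87.9, 56.9 and 267 CPM in eye disc replicates 1, 2 and 3 and at 19.4, 14.7 and 16.1 CPM in antennal disc replicates 1, 2 and 3. Eye disc replicate 3 was 3.04 times the next highest eye disc library, but the lowest eye disc library was still 2.93 times the highest antennal disc library. The coefficient of variation in eye disc was 82.6%, which placed pros at 556 of the 9901 genes, counted from the most variable. The log2 fold change was 3.04 ± 0.66 (edgeR adjusted p = 0.026) and 2.10 without eye disc replicate 3 (adjusted p = 0.00337). The call was lost without each antennal disc replicate in turn, at log2 fold changes of 2.94 to 3.15, and with the replicate number as a block, at 2.72 (adjusted p = 0.064).

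Within an intron of 3 of the 6 pros transcripts lie KP78a and KP78b, a pair of kinase genes with identical spans on the opposite strand. Each was at 60.8 to 64.6 CPM in eye disc, against 70.2 to 76.4 CPM in antennal disc, with the same value for both genes in every library. Summed with these and 3 noncoding genes listed at 0, pros was at 212, 186 and 389 CPM in eye disc replicates 1, 2 and 3 and at 160, 165 and 169 CPM in antennal disc replicates 1, 2 and 3. The direction was kept, but the log2 fold change was 0.67 and no longer called (edgeR adjusted p = 0.142). The KP78 span holds 0 bases of annotated pros exons, and the sum adds all KP78 counts to those of pros. Most of the antennal disc sum belonged to the KP78 genes.

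Prospero also acts in neurons, in sense organs and in some glia, and markers of neurons and glia were higher in eye disc as well. Of 5 neuron markers 4 were called higher in eye disc, against 14.6% of all genes tested. The 5 summed to 662, 545 and 862 CPM in eye disc replicates 1, 2 and 3, and to 87.4 to 99.3 CPM in antennal disc. The fifth, fne, was at 16.4, 7.09 and 88.5 CPM in eye disc replicates 1, 2 and 3 and at 3.03 to 4.16 CPM in antennal disc, and was not called (log2 fold change 3.34, edgeR adjusted p = 0.0735). All 5 glial markers were called higher in eye disc, at 913 to 1041 CPM in sum against 583 to 645 CPM in antennal disc. The markers at the highest levels differed least. Mean CPM in eye and antennal disc were 420 and 314 for Gli, and 272 and 200 for nrv2. They were 200 and 86.9 for loco, 42.8 and 4.47 for repo, and 33.7 and 1.83 for moody. The call of the glial gene Gli (log2 fold change 0.42) was lost without eye disc replicate 1 or 2 and without antennal disc replicate 2 or 3. Under limma-trend on log2(TPM + 1) the calls of Gli (adjusted p = 0.696) and nrv2 (adjusted p = 0.674) were lost. Those of repo, moody and loco were kept. The spans of elav and moody are 98.6% and 100% covered by other genes. The part of neurons and glia in the pros values was not tested. Of all genes tested, 378 (3.82%) were at least 2 times as high in eye disc replicate 3 as in either other eye disc library, as pros was. By the same measure the count was 508 (5.13%) for eye disc replicate 2 and 83 (0.838%) for eye disc replicate 1.

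**Figure D2:**
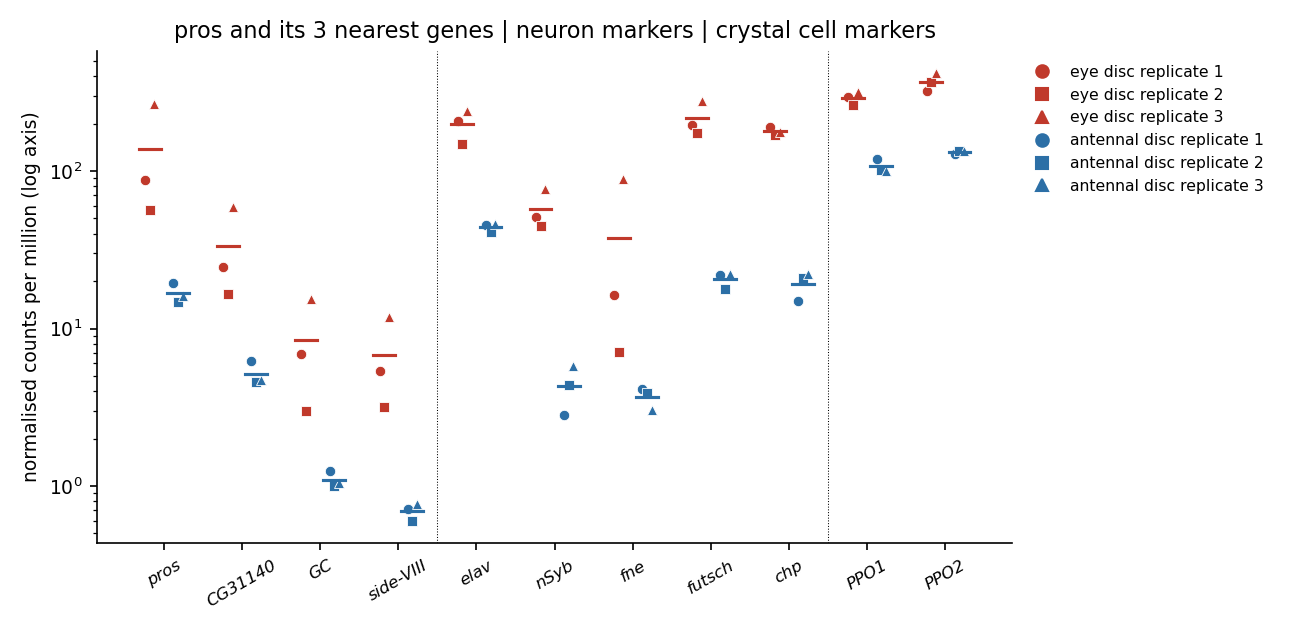
Normalised CPM (log axis) of pros, the 3 genes nearest to it in pattern, 5 neuron markers and 2 crystal cell markers in each eye disc (red) and antennal disc (blue) library, with the mean of 3 libraries as a bar. Eye disc replicate 3 (triangles) is the highest eye disc library for pros, elav, nSyb, fne, futsch, PPO1 and PPO2, but not for chp. It is also the highest for the 3 nearest genes, which were chosen by their likeness to pros.

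The antennal disc values of the 5 genes higher in eye disc were small but above the floor in every library. As a share of the eye disc mean they were 5.09% for sev, 11.6% for boss, 12.2% for pros, 15.7% for lz and 27.2% for phyl. The eye markers were at 4.5% for gl, 8.52% for eya, 11.0% for ey and 11.6% for so, so that pros, lz and phyl lay above all 4. The share of pros rests on eye disc replicate 3: without that library it was 23.1%, above lz. Antennal disc replicate 3 had the highest CPM of the 3 antennal disc libraries for sev, boss, phyl and lz, and also for eya, so, ey and gl, but not for pros. The rank was not particular to eye genes, since that library was also highest for the antennal markers Dll, ss and disco, though not for hth. Since eye and antennal portions were separated manually, eye tissue left on the antennal side could add reads of eye genes, which was not tested.

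**Figure D3:**
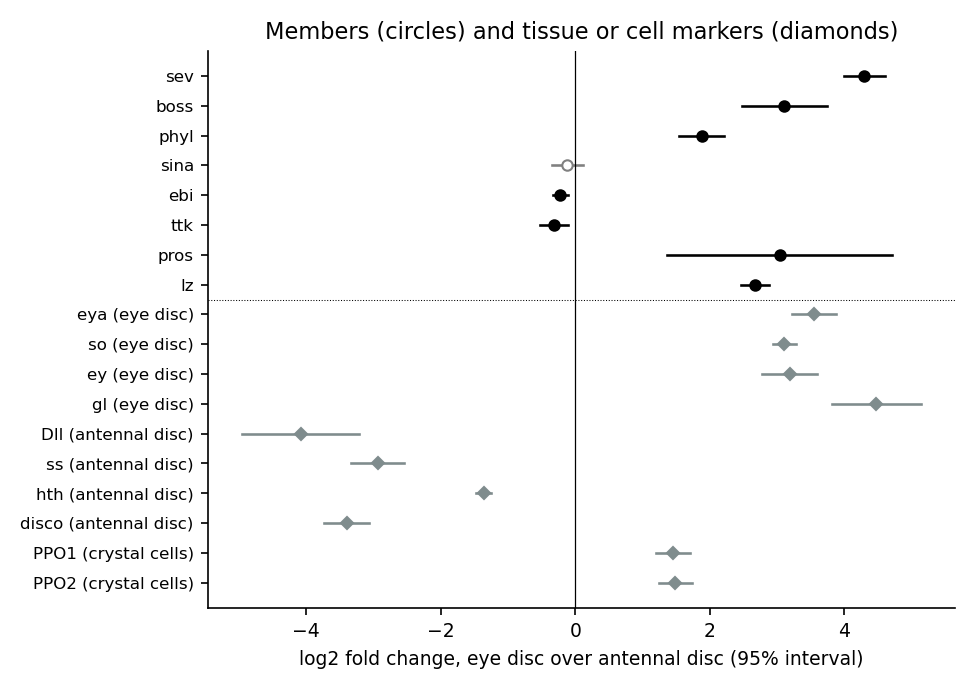
Log2 fold change, eye disc over antennal disc, with its 95% interval, for the 8 members (circles, open where not called) and for markers of eye disc, antennal disc and crystal cells (diamonds). sev lies near the eye marker gl, boss, pros and lz lie near or just under eya, so and ey, and sina, ebi and ttk lie close to 0.

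To compare genes with each other, CPM were divided by the kilobases of merged annotated exons. On this scale the eye disc held 46.1 ± 2.71 of sev, 41.0 ± 1.40 of ebi, 36.2 ± 1.46 of lz, 33.2 ± 2.58 of ttk, 26.1 ± 2.49 of sina, 24.2 ± 4.02 of phyl, 5.51 ± 4.56 of pros and 3.74 ± 0.379 of boss (CPM per exon kb, SD, n = 3). The ranges of lz and ttk overlapped, as did those of sina and phyl and of pros and boss, while the other neighbours in this order were apart in all libraries. By these means sev was highest and boss lowest, but in eye disc replicate 2 pros (2.28) was below boss (3.69). In antennal disc the order was ebi, ttk, sina, phyl, lz, sev, pros and boss, from 47.6 ± 0.891 to 0.432 ± 0.122 CPM per exon kb, and the ranges of phyl and lz overlapped. The level of pros per length rests on 24.9 kb of merged exons.

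Ratios within a library do not depend on how libraries are scaled, and 6 were taken between genes that act on each other, chosen after the values had been seen. The receptor to ligand ratio of estimated counts, sev to boss, was 35.9, 32.5 and 32.2 in eye disc replicates 1, 2 and 3 and 15.5, 16.4 and 13.1 in antennal disc replicates 1, 2 and 3. The adaptor to ligase ratio, phyl to sina, was 0.582, 0.416 and 0.578 in eye disc and 0.140, 0.122 and 0.132 in antennal disc. For both, the tissues did not overlap, with an exact two-sided permutation p of 0.1, the smallest that 3 against 3 allows, and 0.3 after adjustment over the 6 ratios. The other 4 overlapped between the tissues. By same-numbered library, sev to boss and phyl to sina were higher in eye disc in 3 of 3 pairs. ebi to sina, ttk to sina and aop to pnt were lower in 3 of 3, and the first 2 of these share the sina counts. Each of these 5 ratios had an exact two-sided paired permutation p of 0.25, the smallest that 3 pairs allow, so this test could not call a shift. lz to pros was lower in 1 of 3 pairs. ebi to sina averaged 1.62 ± 0.214 in eye disc and 1.72 ± 0.162 in antennal disc, and ttk to sina 2.97 ± 0.512 in eye disc and 3.40 ± 0.585 in antennal disc. lz to pros was at 0.470 to 2.12 in eye disc and 0.976 to 1.36 in antennal disc. The ratio of aop to pnt, the repressor and the activator on which MAP kinase acts in this pathway, averaged 3.33 ± 0.178 in eye disc and 3.37 ± 0.212 in antennal disc.

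**Figure D4:**
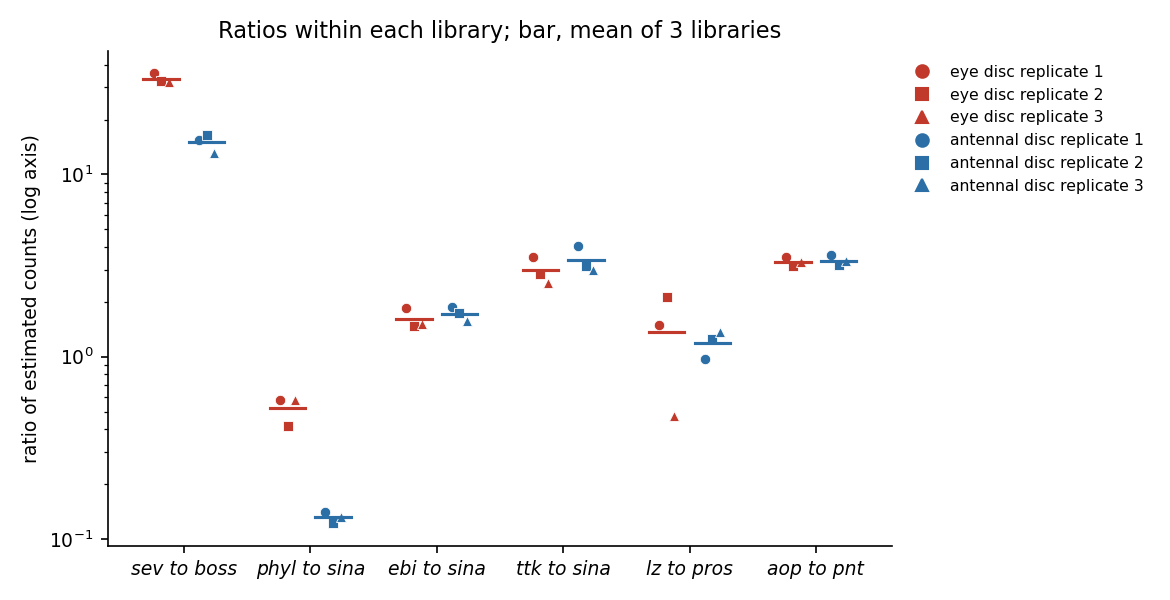
Ratio of the estimated counts of paired genes (log axis) in each eye disc (red) and antennal disc (blue) library, with the mean of 3 libraries as a bar. sev to boss and phyl to sina are higher in all eye disc libraries, and the other 4 ratios overlap between the tissues.

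Between Sevenless and the nucleus runs the kinase cascade. Among its 12 listed genes 8 were not called, 3 were higher in eye disc, against 14.6% of all genes tested, and 1 was lower, against 11.7%, with a median log2 fold change of 0.08, against 0.00 over all genes tested. Those not called, among them the adaptor drk, the exchange factor Sos and the kinase genes Raf, Dsor1 and rl, lay between -0.07 and 0.24. The genes higher in eye disc were RasGAP1 (log2 fold change 0.59), which switches Ras off, the adaptor dos (0.52) and the feedback inhibitor sty (0.51). The scaffold gene cnk was the gene higher in antennal disc (-0.21), and its call was lost without eye disc replicate 2 and without each antennal disc replicate (edgeR, adjusted p up to 0.0731). All 4 calls were lost under limma-trend on log2(TPM + 1), at adjusted p of 0.533 for RasGAP1, 0.605 for dos, 0.627 for sty and 0.47 for cnk.

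At the nuclear end, 5 of 9 tested genes were not called, 4 were higher in eye disc, against 14.6% of all genes tested, and 0 were lower, against 11.7% (median log2 fold change -0.03, against 0.00). The ETS activator pnt was at 138 ± 2.16 CPM in eye disc, against 55.9 ± 1.39 CPM in antennal disc, and the ETS repressor aop, also called yan, at 458 ± 17.3 CPM in eye disc, against 188 ± 8.08 CPM in antennal disc. Their log2 fold changes were 1.30 and 1.28. The neural repressor gene chn, which Ebi and its partner Smr hold down, was higher in eye disc by 0.77. Jra, the fly Jun, was higher by 0.27, a call that held only without eye disc replicate 3 among the 6 fits that left out 1 library (adjusted p up to 0.157). Under limma-trend on log2(TPM + 1) chn (adjusted p = 0.325) and Jra (adjusted p = 0.916) were not called. The ubiquitin-conjugating enzyme gene eff, the RNA-binding translational repressor msi, Smr, HDAC1 and edl lay between -0.32 and -0.03 and were not called.

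All 8 genes of photoreceptor fates around R7 were called higher in eye disc, against 14.6% of all genes tested (median log2 fold change 2.16, against 0.00). The list was chosen with earlier results of these data known, so the contrast is a description only. The zinc finger gene gl, needed in all photoreceptors, differed by 4.48, the R2 and R5 gene ro by 3.68, the nuclear receptor gene svp, which keeps other precursors from R7 fate, by 3.03, and B-H2, of R1 and R6, by 2.33. The smallest were those of the spalt genes salm (0.64) and salr (0.36), whose calls were lost under limma-trend on log2(TPM + 1) (adjusted p = 0.488 and 0.804). The span of ro is 83.8% covered by another gene. The cone cell list was split, with 2 of 7 genes higher in eye disc, 4 higher in antennal disc and 1 not called, against 14.6% and 11.7% of all genes tested (median -0.23). sv, the Pax gene of cone cells, was at 27.1 ± 1.54 CPM in eye disc, against 5.58 ± 1.13 CPM in antennal disc, a log2 fold change of 2.28, and the EGF receptor ligand gene spi differed by 0.52. ct, a homeobox gene of cone cells and of the antenna, was lower in eye disc by 1.05 on the log2 scale. The Notch ligand gene Delta (-0.39), N (-0.31) and Egfr (-0.23) were lower too. The call of N was lost without antennal disc replicate 1 or 3, and that of Egfr in every fit that left out 1 library but the fit without antennal disc replicate 2 (adjusted p up to 0.0724 and 0.124). spi, Delta, N and Egfr were not called under limma-trend on log2(TPM + 1) (adjusted p between 0.263 and 0.588).

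**Figure D5:**
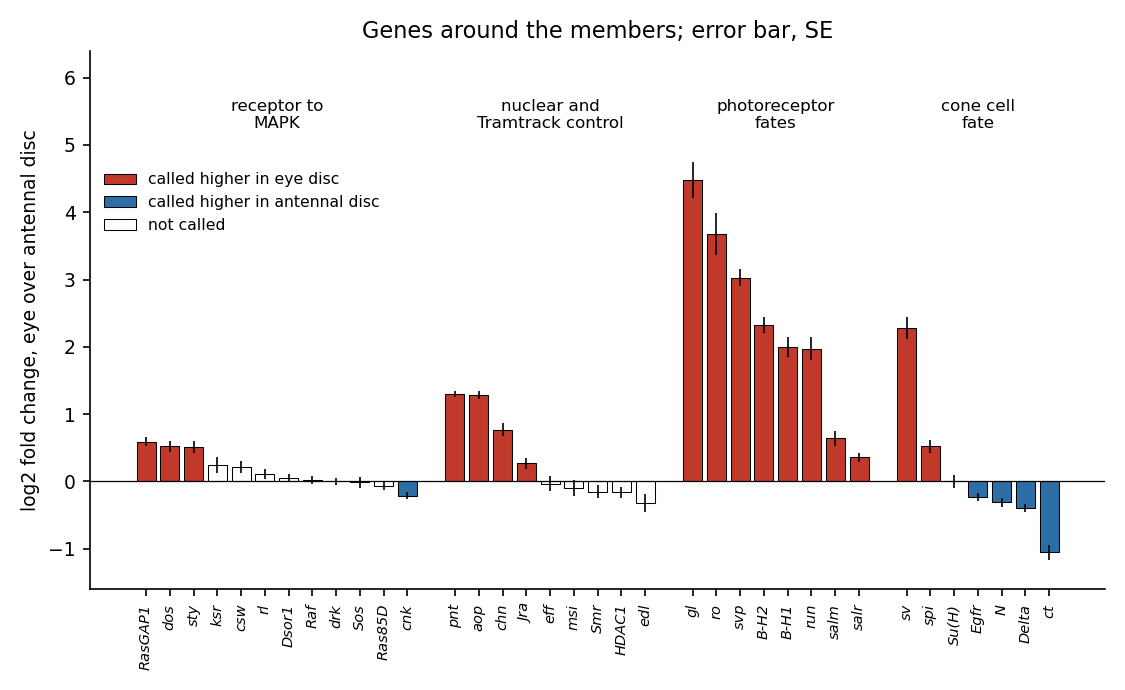
Log2 fold change, eye disc over antennal disc, with its SE, for the tested genes of 4 lists around the members. All genes of the photoreceptor list are called higher in eye disc (red), while 8 of 12 genes of the receptor to MAPK list are not called (white) and the cone cell list holds genes called higher in antennal disc (blue).

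For each member the 3 genes nearest in pattern were taken by the Euclidean distance between log2 CPM profiles, each centred on its own mean over the 6 libraries. The genes nearest to sev were SP2353, X11Lbeta and superdeath, at distances of 0.18, 0.24 and 0.24 and log2 fold changes of 4.24 to 4.27. The nearest to lz were retn, an ARID factor (0.22), rdo (0.25) and CG13894 (0.28). phyl lay nearest to the Notch target E(spl)mdelta-HLH (0.30), the retinal homeobox gene Optix (0.30) and the RUNX gene run (0.32). Nearest to boss were a noncoding RNA under 1 CPM in all libraries, lncRNA:CR44702 (0.33), CG31176 (0.36) and ey (0.38). pros had the most distant neighbours, CG31140, GC and side-VIII, at 0.43, 0.46 and 0.51. Eye disc replicate 3 was the highest library for each of them, which a choice by distance to the pros profile favours. sina, ebi and ttk, whose values differed little, had neighbours at 0.03 to 0.08, among them par-6, of cell polarity, for ebi and the chaperone gene Hsp110 for ttk.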

How the data were processed

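For each library the authors deposited a table of 17753 genes with 2 measures, estimated counts and TPM (transcripts per-million), named as kallisto names them, per the file headers. kallisto, FastQC, bedtools and dm6 are named in the submitters' processing notes, while no version, strand setting or annotation release is given in the sources used here. For every member the indexed length equals its whole gene span, introns included, so reads of nested genes may be shared out between them. Symbols, exons and dm6 coordinates came from the Ensembl annotation, which matched 17622 genes. A further deposited file per library repeats TPM for 670 region and gene pairs, all equal to the expression table.

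After rounding of the estimated counts, filterByExpr and TMM scaling, the tissues were compared in edgeR 4.0.16 (R 4.3.3) by a robust quasi-likelihood fit without covariates, eye disc over antennal disc. Adjusted p (Benjamini-Hochberg) covers 9901 genes. The SE is the absolute log2 fold change divided by the square root of F, and the 95% interval uses the t quantile of the fit. Ratios were compared by exact permutation (scipy 1.17.1), and also by same-numbered pairs, a choice made after seeing the data, as was leaving eye disc replicate 3 out of the share of pros. Alternatives were DESeq2 1.42.0, RLE scaling, other filters, limma-trend (limma 3.58.1) on log2(TPM + 1), the replicate number as a block, each library left out, and members summed with the genes that overlap them. The edgeR step was tested on simulated data with far fewer changed genes than were called here, so that test does not measure the error of these calls.

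The members and gene lists were chosen with earlier results of these data known. Besides the members, the text names the 4 called genes with the largest change per list, any called in the opposite direction, and the 3 genes nearest to each member; other names were chosen after the values were seen. Nearest genes were sought on log2 CPM (prior count 2) among genes whose span is not wholly covered. The labels call the samples biological replicates without saying which cultures or days they came from. Libraries that share a number departed from their tissue means together (correlation across genes 0.415, 0.308 and 0.242 for replicates 1, 2 and 3). For libraries with unlike numbers the correlations ran from -0.43 to 0.0819. Departures from the mean of 3 libraries cancel out, so these correlations are not independent of each other. The match by number was read as a sign of pairing from the data, which the labels do not state. The main fit left the number out, so its calls, SE and intervals ignore any such pairing. With the number as a block 3011 genes were called, against 2610 without it, and pros was not among them. Promoter sequences were not analysed here.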

Additional observations from a re-analysis of the deposited data

How the results depend on the processing

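The direction of every member was the same under all alternatives run, and sev, boss, phyl and lz were called under each of them. The calls of ebi and ttk were lost under limma-trend on log2(TPM + 1), at -0.42 (adjusted p = 0.452) and -0.51 (adjusted p = 0.341), a scale on which the median of all genes was -0.18. With 1 library left out, ebi was between -0.25 and -0.19, ttk between -0.37 and -0.25 and pros between 2.10 and 3.41. The call of pros was also lost without a filter on low counts (3.02, adjusted p = 0.0508), with the replicate block (2.72, adjusted p = 0.064) and when summed with overlapping genes (0.67, adjusted p = 0.142); the cause was not tested, except that the sum adds the counts of KP78a and KP78b. The block changed no other member's call. The members called numbered 7 as reported, 6 with the replicate block and 4 to 7 with 1 library left out. Over all genes, 2610 were called, 1202 under limma-trend (71.4% of them higher in eye disc, against 55.5%) and 1467 to 2514 with 1 library left out, fewest without antennal disc replicate 3 and then replicate 2 (1515). The 4 lists around the members held 12, 9, 8 and 7 tested genes. Of these genes 22 were called, 17 higher and 5 lower in eye disc, against 26.4% of all genes tested. Under limma-trend 10 were called, 9 higher and 1 lower in eye disc, against 1202 of all 9901 genes. Per kb of the whole gene span in place of exons, eye disc levels were 39.3 for ebi, 25.3 for sev, 17.2 for sina, 11.6 for ttk, 8.89 for phyl, 6.61 for lz, 2.27 for boss and 1.73 for pros, so that ebi and not sev was highest and pros and not boss lowest. Depth was lowest for boss, with 31 to 45 counts per antennal disc library.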
